A study of Homo sapiens with 24 samples.

Results

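The genes described here are 42 genes of autophagy and the lysosome, taken by symbol from a list that held their names and no measured value, out of 37411 genes in the count table. Their choice was made with earlier results of these data known. By role they comprise the ULK complex (ULK1, ULK2, ATG13, ATG101 and RB1CC1), the class III PI3-kinase complex (BECN1 and ATG14), ATG9A with the lipid-transfer and WIPI proteins (ATG2A, ATG2B, WIPI1 and WIPI2), the conjugation enzymes (ATG3, ATG4A, ATG4B, ATG5, ATG7, ATG12 and ATG16L1), the ATG8 family (MAP1LC3B, GABARAP, GABARAPL1 and GABARAPL2), the cargo receptors (SQSTM1, NBR1, OPTN and TAX1BP1), the TFEB family (TFEB, TFE3 and MITF), lysosomal membrane proteins (LAMP1, LAMP2 and MCOLN1), lysosomal enzymes (CTSA, CTSB, CTSD, CTSL, HEXA and NEU1) and V-ATPase subunits (ATP6V0D1, ATP6V1A and ATP6V1H). Transcripts were counted by RNA sequencing in PC9, an established line from a human lung adenocarcinoma. The cells were grown for 2 days, rinsed, and moved 6 or 24 h before harvest to RPMI medium without asparagine or to the same medium with it. Each medium carried 200 nM ISRIB, a small molecule that stimulates the translation initiation factor eIF2B and thereby blunts the integrated stress response, or 0.004% DMSO, called vehicle below. At each time there were therefore 4 groups (ISRIB without asparagine, vehicle without asparagine, ISRIB with asparagine, vehicle with asparagine), and the 8 groups held 3 libraries each, called biological triplicates in the series' design text. PC9 is 1 line, and what separates the replicates (day, dish or passage) was not given in the sources used here.

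Autophagy encloses cytoplasm in a double membrane and delivers it to the lysosome, where hydrolases break it down and release amino acids. The ULK kinase complex starts the process when amino acids are short, the PI3-kinase complex, ATG9A, ATG2 and the WIPI proteins build the membrane, and the conjugation enzymes attach ATG8 proteins such as LC3 to its lipids, where receptors bring in cargo. TFEB, TFE3 and MITF are related transcription factors known to switch on lysosomal and autophagy genes through CLEAR elements, whereas the integrated stress response acts on autophagy genes through ATF4 and its partners.

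The promoters of 36 of the 42 genes were found in RefSeq (GRCh38.p14), as 47 windows that reach from 250 bases before to 50 bases after a transcription start. Those shown belong to the 3 genes with the clearest response at 6 h (ULK1, MAP1LC3B and GABARAPL1), and to 2 lysosomal genes with several E-boxes, MCOLN1, which was called at 24 h, and LAMP1, which passed no test. Capitals mark 4 motifs searched on both strands: the E-box CACGTG, the CLEAR element (here that E-box with GT before it and AC after it, so that each CLEAR match is also an E-box), the C/EBP-ATF response element TGATGNAA and the cyclic AMP response element TGACGTCA.
ULK1: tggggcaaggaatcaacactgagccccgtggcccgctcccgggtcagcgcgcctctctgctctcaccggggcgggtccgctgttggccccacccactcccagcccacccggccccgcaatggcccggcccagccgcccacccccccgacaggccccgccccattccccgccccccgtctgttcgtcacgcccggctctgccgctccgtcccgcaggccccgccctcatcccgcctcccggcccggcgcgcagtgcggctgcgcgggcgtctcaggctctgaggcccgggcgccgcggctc
MAP1LC3B: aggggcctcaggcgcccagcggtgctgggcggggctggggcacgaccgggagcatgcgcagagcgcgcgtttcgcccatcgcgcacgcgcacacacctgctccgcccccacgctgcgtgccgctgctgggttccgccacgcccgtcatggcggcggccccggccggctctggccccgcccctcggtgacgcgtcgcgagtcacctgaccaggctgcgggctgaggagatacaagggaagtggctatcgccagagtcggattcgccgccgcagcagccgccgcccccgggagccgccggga
GABARAPL1: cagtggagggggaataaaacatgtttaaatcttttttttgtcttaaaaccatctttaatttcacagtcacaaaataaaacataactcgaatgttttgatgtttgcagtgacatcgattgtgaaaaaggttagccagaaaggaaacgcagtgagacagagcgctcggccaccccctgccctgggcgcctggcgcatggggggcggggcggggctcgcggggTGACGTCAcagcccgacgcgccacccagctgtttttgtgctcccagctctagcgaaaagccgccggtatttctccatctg
MCOLN1: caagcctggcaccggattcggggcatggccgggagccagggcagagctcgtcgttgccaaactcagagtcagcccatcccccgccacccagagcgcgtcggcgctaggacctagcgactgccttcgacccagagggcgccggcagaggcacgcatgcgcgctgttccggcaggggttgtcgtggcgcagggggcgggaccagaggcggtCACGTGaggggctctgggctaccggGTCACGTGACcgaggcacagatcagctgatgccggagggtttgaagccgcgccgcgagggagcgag
LAMP1: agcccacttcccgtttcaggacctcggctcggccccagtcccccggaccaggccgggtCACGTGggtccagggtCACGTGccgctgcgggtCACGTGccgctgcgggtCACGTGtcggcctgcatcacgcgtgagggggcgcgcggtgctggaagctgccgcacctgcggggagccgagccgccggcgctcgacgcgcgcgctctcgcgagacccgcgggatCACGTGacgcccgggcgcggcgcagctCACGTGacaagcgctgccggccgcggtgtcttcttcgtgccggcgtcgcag
The windows lie on the plus strand at chr12:131894372-131894671 (ULK1), chr16:87392086-87392385 (MAP1LC3B), chr12:10212627-10212926 (GABARAPL1), chr19:7522374-7522673 (MCOLN1) and chr13:113296989-113297288 (LAMP1). The ULK1 and MAP1LC3B windows held none of the 4 motifs, the GABARAPL1 window held TGACGTCA, the MCOLN1 window held 2 E-boxes of which 1 was a full CLEAR element, and the LAMP1 window held 6 E-boxes. The E-box was found in 8 of the 47 windows, or 17.0%, against 7.26% of 35116 RefSeq windows of the same length, in ATG3, ATG14, ATP6V0D1, CTSA, CTSD, LAMP1, MCOLN1 and NEU1. The full CLEAR element was found in 1 of the 47, against 0.353% of all windows, TGACGTCA in 2 (GABARAPL1 and 1 start of MITF) against 1.85%, and TGATGNAA in 0 against 3.62%. These are letter matches within 300 bases and say nothing of sites outside the window.

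The libraries held 16737384 to 27495861 counts. ASNS, the asparagine synthetase gene that the integrated stress response induces, checked the treatment: in CPM, counts scaled to a common library total, it averaged 166 ± 13.6 CPM in vehicle without asparagine at 6 h and 29 ± 2.11 CPM in vehicle with asparagine (SD, n = 3 each), while ISRIB without asparagine averaged 26.7 ± 3.34 CPM. The 7 epithelial markers examined summed to 9140 to 13100 CPM in every library. The 4 leukocyte markers summed to at most 2.42 CPM. Of the 4 fibroblast markers LUM, DCN and COL1A2 were at 0 in 23, 18 and 13 of the 24 libraries, while COL1A1 was at 3.59 to 13.1 CPM and at 0 in none. The 3 endothelial markers (CDH5, PECAM1 and VWF) summed to 3.96 to 57.6 CPM, with CDH5 at up to 55.4 CPM. Libraries differed in how their counts followed transcript GC content, with slopes between -0.38 and 0.22 (log2 units for each 10 percentage points of GC). The most negative were replicate 3 of ISRIB with asparagine at 24 h (-0.38), replicate 3 of ISRIB without asparagine at 6 h (-0.37) and replicate 1 of ISRIB with asparagine at 6 h (-0.19). GC-corrected changes are given where the correction moved a called change by over 1.5 times, and for some other genes.

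Per length, transcripts of the pathway differed widely in level. SQSTM1, the receptor p62, and CTSD, the aspartic protease cathepsin D, had the highest medians over the 24 libraries, 73.4 RPKM each (CPM divided by exon length in kilobases). CTSL (cathepsin L) followed at 48.5 RPKM and LAMP1, an abundant glycoprotein of the lysosomal membrane, at 46.6 RPKM, and the ranges of these 4 genes over libraries overlapped. Among the ATG8 genes GABARAPL2 had a median of 14.9 RPKM, GABARAPL1 13.7 and MAP1LC3B 6.92 RPKM. TFEB, at 0.914 RPKM, was far below its relatives MITF (10.5 RPKM) and TFE3 (10.1 RPKM), and WIPI1, a phosphoinositide-binding protein of the forming membrane, was the lowest tested gene at 0.644 RPKM. The low genes rest on few reads, 13 to 66 counts per library for WIPI1 and 53 to 226 for TFEB.

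2 of the 42 genes fell below the filter on low counts and were not tested. GABARAP had 0 to 7 counts per library, and 30.49% of its exon bases are shared on the same strand with the annotated gene AC120057.2, which the table does not list. NEU1, which encodes a sialidase, had 0 counts in 23 libraries and 1 in the other. Within 300 kb on each side of NEU1 the table lists 10 other protein-coding genes, and none exceeded 13 counts in a library. Whether the counting step set the reads of these 2 genes aside was not tested, so their values are not read as absence of the transcript.

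**Figure D1:**
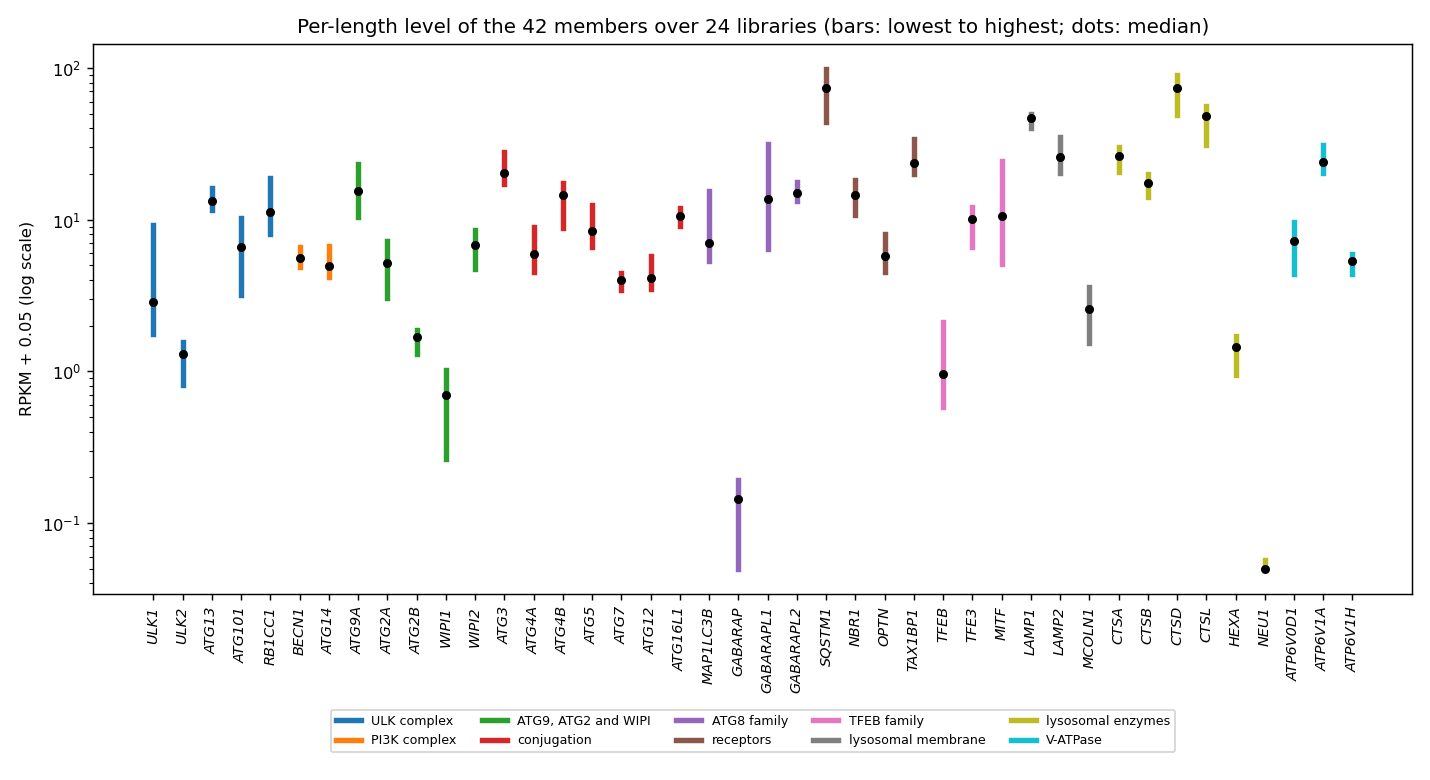
Level per length of the 42 genes in RPKM plus 0.05 on a log axis, grouped and coloured by role. Bars run from the lowest to the highest of 24 libraries and dots are medians. SQSTM1 and CTSD stand highest (73.4 RPKM each), WIPI1 is the lowest tested gene (0.644 RPKM), and ULK1, GABARAPL1 and MITF have wide bars.

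Loss of asparagine for 6 h, in vehicle, raised transcripts of 6 genes spread over 4 roles: the initiating kinase ULK1, the ATG8 genes MAP1LC3B and GABARAPL1, the receptor NBR1, and the transcription factors TFEB and MITF. In vehicle, 6 of 40 tested genes were higher without asparagine and 0 were lower at an adjusted p below 0.05, or 15% of the genes, against 4.57% of all 17409 genes tested (3.31% higher and 1.26% lower). Adjusted p-values throughout are Benjamini-Hochberg values of edgeR's quasi-likelihood test over all genes tested. In bulk RNA, fewer cells with a transcript and less of it per cell cannot be told apart. The median change of the 40 genes was 0.09 on the log2 scale and that of all genes 0.01. No enzyme of the lysosome, V-ATPase subunit, conjugation enzyme or PI3-kinase subunit passed the test.

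ULK1, the kinase that starts autophagosome formation (chr12:131894651-131923167, GRCh38, GENCODE release 29, as for the positions below), had 69.7, 68.4 and 62.4 CPM in the libraries without asparagine, against 23.6, 27.9 and 21.6 CPM with asparagine. All 3 libraries without asparagine were above all 3 with it, a 2.74-fold difference (log2 1.46 ± 0.21 SE, adjusted p = 0.000123). The other members of the complex did not pass: ATG13, the adaptor that ties ULK1 to its scaffold, had a log2 change of 0.21 ± 0.07 (adjusted p = 0.0857), and RB1CC1, the scaffold FIP200, one of 0.51 ± 0.21 (adjusted p = 0.227). ULK2, the second kinase of the pair, was at 12.8, 13.2 and 12.2 CPM without asparagine and 12.4, 12.3 and 12.4 CPM with it, and these groups overlapped.

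Within the ATG8 family, whose proteins coat the growing membrane and bind receptors, MAP1LC3B (LC3B, chr16:87383995-87404779) had 75.4, 75.8 and 82.4 CPM without asparagine, against 37.7, 34.3 and 35.3 CPM with asparagine. The groups did not overlap, and the 2.18-fold rise had an adjusted p of 5.67e-06 (log2 1.12 ± 0.13). GABARAPL1, a member of the GABARAP branch (chr12:10212458-10223130), had 114, 128 and 129 CPM without asparagine, against 65.9, 75.0 and 72.5 CPM with it. It too rose without overlap, by 0.80 ± 0.11 on the log2 scale (adjusted p = 8.34e-05). GABARAPL2 had 45.8, 42.4 and 44.6 CPM without asparagine and 43.3, 40.7 and 41.9 CPM with asparagine, a change of 0.08 ± 0.09 that did not pass (adjusted p = 0.74). GABARAP, untested, had 4, 5 and 6 counts without asparagine and 3, 4 and 2 counts with it. MAP1LC3B2, a near-identical copy of MAP1LC3B whose counts came to 21.1% of those of MAP1LC3B over the 24 libraries, rose by 0.63 ± 0.13 (adjusted p = 0.0054), and reads could not be assigned between the copies here.

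Of the receptors, NBR1, which links ubiquitinated cargo to ATG8 proteins (chr17:43170481-43211689), had 141, 120 and 132 CPM without asparagine, against 102, 90 and 92.1 CPM with asparagine. The groups stood apart by a smaller margin than for ULK1, with a log2 change of 0.47 ± 0.11 (adjusted p = 0.0126). SQSTM1 had 613, 667 and 546 CPM without asparagine and 626, 754 and 602 CPM with it. These groups overlapped, and SQSTM1 had a log2 change of -0.12 ± 0.19 (adjusted p = 0.814), while OPTN and TAX1BP1 did not pass either.

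In the TFEB family, TFEB (chr6:41683978-41736259) had 11.7, 10.4 and 8.12 CPM without asparagine, against 5.85, 6.31 and 4.29 CPM with asparagine, and rose by 0.87 ± 0.25 (adjusted p = 0.0457). MITF (chr3:69739435-69968337) had 113, 116 and 131 CPM without asparagine, against 72.8, 73.5 and 88.4 CPM with it, and rose by 0.62 ± 0.14 (adjusted p = 0.012). Neither pair of groups overlapped. TFE3, by contrast, had 51.3, 51.2 and 45.1 CPM without asparagine and 47.4, 49.7 and 46.6 CPM with it, and its change of 0.04 ± 0.14 did not pass (adjusted p = 0.921). The TFEB call was the least firm of the 6, since it was lost when any of 5 libraries was left out: replicate 1, 2 or 3 with asparagine (adjusted p = 0.112, 0.0721 and 0.205) or replicate 1 or 2 without asparagine (adjusted p = 0.18 and 0.128). MITF was lost without replicate 1 or 2 with asparagine (adjusted p = 0.0768 and 0.0683) or replicate 3 without it (adjusted p = 0.0751). NBR1 was lost without replicate 2 or 3 with asparagine (adjusted p = 0.0715 and 0.0593) or replicate 1 without it (adjusted p = 0.0755).

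**Figure D2:**
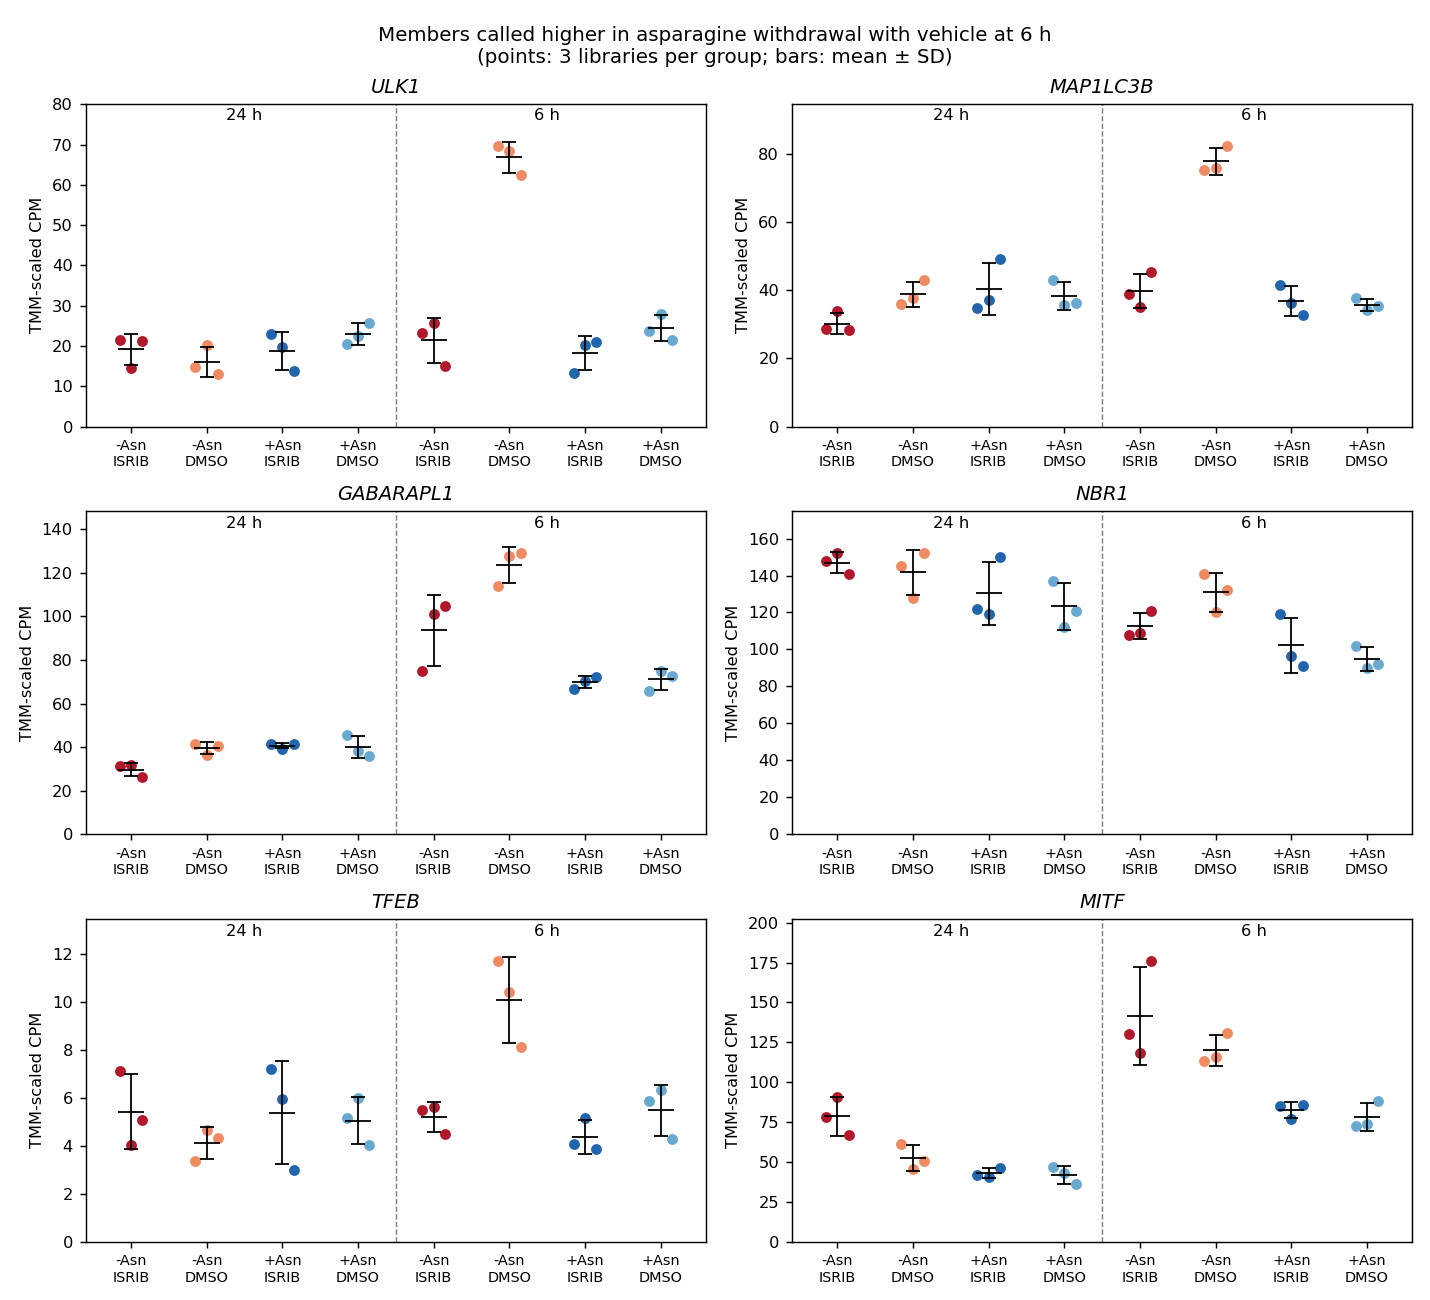
TMM-scaled CPM of the 6 genes called higher in vehicle without asparagine at 6 h, in all 24 libraries. Points are libraries, bars are mean ± SD of 3 libraries, and each panel runs from 24 h to 6 h with ISRIB left of vehicle (DMSO) in each medium. ULK1 stands out in vehicle without asparagine at 6 h (62.4 to 69.7 CPM), and MITF is high in both groups without asparagine at 6 h.

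No lysosomal gene passed in this comparison. CTSL (chr9:87725519-87731393) had 118, 120 and 119 CPM without asparagine and 122, 118 and 125 CPM with asparagine. MCOLN1, the lysosomal channel mucolipin (chr19:7522626-7534009), had 12.5, 11.6 and 9.85 CPM without asparagine and 12.6, 13.0 and 10.2 CPM with it. Over the 5 tested lysosomal enzymes the log2 changes ran from -0.18 to -0.03, over the 3 membrane proteins from -0.08 to 0.14 and over the V-ATPase subunits from -0.24 to 0.09, and none passed. With a correction of each library for GC content, 11 genes were higher in vehicle without asparagine, the same 6 and ATG13 (log2 0.25), RB1CC1 (0.37), ATG9A (0.34), ATG2A (0.62) and ATG5 (0.23), against 10.3% of all genes under that correction.

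At 24 h none of the 40 genes passed in the same comparison, against 0.00574% of all genes, which is 1 gene. That gene was ASNS, at 57.1 ± 2.4 CPM without asparagine and 27.2 ± 1.58 CPM with it (log2 1.07 ± 0.1 SE, adjusted p = 8.42e-06). DESeq2 also called 0 of the 40, and 3 of the 40 and 1271 of all genes had an unadjusted p below 0.05 with edgeR. ULK1 had 14.8, 20.3 and 13.1 CPM in vehicle without asparagine at 24 h and 20.5, 22.6 and 25.8 CPM with asparagine, a log2 change of -0.51 ± 0.22 (adjusted p = 0.671). MAP1LC3B had 35.9, 37.7 and 43.0 CPM without asparagine and 42.9, 35.7 and 36.2 CPM with it, and GABARAPL1 had 41.5, 36.3 and 40.6 CPM without it and 45.6, 38.2 and 36.0 CPM with it. The difference between the times was itself tested: the withdrawal response was lower at 24 h than at 6 h by 1.97 ± 0.31 on the log2 scale for ULK1 (adjusted p = 0.000705), by 1.10 ± 0.18 for MAP1LC3B (adjusted p = 0.00144) and by 0.81 ± 0.16 for GABARAPL1 (adjusted p = 0.00737). These 3 were the calls among the 40 genes in that test, or 7.5%, against 1.22% of all genes (1.03% lower). That test uses the libraries behind the calls at 6 h, so it is not independent of them. TFEB (-1.17 ± 0.36, adjusted p = 0.158), NBR1 (-0.27 ± 0.16, adjusted p = 0.729) and MITF (-0.29 ± 0.20, adjusted p = 0.818) did not pass it. After GC correction TFEB (-1.15, adjusted p = 0.013), ATG9A (-0.39) and ATG2A (-0.66) passed it as well, against 4.14% of all genes under that correction.

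Among cells kept 6 h without asparagine, those given ISRIB had less ULK1, MAP1LC3B and TFEB transcript than those given vehicle. ISRIB lowered 3 of the 40 genes and raised 0 relative to vehicle, or 7.5% of the genes, against 2.19% of all genes (1.64% lower and 0.551% higher). This comparison and that of withdrawal in vehicle use the same libraries of vehicle without asparagine at 6 h, so they are not independent. The median change of the 40 genes was -0.12 and that of all genes 0.01. ULK1 had 23.3, 25.7 and 15.1 CPM with ISRIB, against 69.7, 68.4 and 62.4 CPM with vehicle, a log2 change of -1.64 ± 0.22 (adjusted p = 3.91e-05). MAP1LC3B had 38.8, 35.2 and 45.3 CPM with ISRIB, against 75.4, 75.8 and 82.4 CPM with vehicle, and fell by 0.97 ± 0.13 (adjusted p = 4.07e-05). In both genes the groups stood apart, and the ISRIB libraries overlapped those of vehicle with asparagine. TFEB had 5.47, 5.62 and 4.47 CPM with ISRIB, against 11.7, 10.4 and 8.12 CPM with vehicle, and its fall of 0.95 ± 0.25 had an adjusted p of 0.0499. That call was lost with RLE scaling (adjusted p = 0.0517), in a fit to these groups alone (adjusted p = 0.0687) and without any of 5 of the 6 libraries, all but replicate 3 of vehicle (adjusted p = 0.101 to 0.236).

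GABARAPL1 was intermediate. It had 75.1, 101 and 105 CPM with ISRIB, against 114, 128 and 129 CPM with vehicle, both without asparagine. Its change of -0.40 ± 0.11 missed the threshold (adjusted p = 0.069), and it passed with DESeq2 (adjusted p = 0.0319) and after GC correction (adjusted p = 0.015). NBR1 had 108, 109 and 121 CPM with ISRIB and 141, 120 and 132 CPM with vehicle, a change of -0.22 ± 0.11 (adjusted p = 0.51). MITF had 130, 118 and 176 CPM with ISRIB and 113, 116 and 131 CPM with vehicle, a change of 0.23 ± 0.14 (adjusted p = 0.655). GC-corrected values added ATG9A (-0.29), ATG2A (-0.44) and WIPI2 (-0.32) to the genes lowered by ISRIB, against 6.08% of all genes called under that correction.

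The effect of withdrawal was then read in cells given ISRIB. At 6 h MITF was the 1 gene of 40 that passed, against 2.3% of all genes (1.63% higher): it had 130, 118 and 176 CPM in ISRIB without asparagine, against 85.2, 77.1 and 85.8 CPM in ISRIB with asparagine (log2 0.77 ± 0.14, adjusted p = 0.00438). This call was lost when these 2 groups were fitted alone (adjusted p = 0.246), a fit in which 0 of all genes passed. ULK1 had 23.3, 25.7 and 15.1 CPM without asparagine and 13.4, 20.2 and 21.1 CPM with it, and these groups overlapped (log2 0.23 ± 0.22, adjusted p = 0.775). GABARAPL1 had 75.1, 101 and 105 CPM without asparagine and 66.7, 70.4 and 72.2 CPM with it, with no overlap, and a log2 change of 0.42 ± 0.11 that fell just short (adjusted p = 0.0522). GABARAPL1 passed with DESeq2 (adjusted p = 0.0138) and after GC correction (adjusted p = 0.00936), as did ULK1 (0.31, adjusted p = 0.0383) and ATG5 (0.27, adjusted p = 0.0125) after GC correction, under which 8.13% of all genes passed.

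Whether the withdrawal response differed between ISRIB and vehicle was tested as an interaction. At 6 h MAP1LC3B was the 1 gene that passed, against 0.718% of all genes (0.661% lower and 0.0574% higher), with a response in ISRIB lower by 1.02 ± 0.18 on the log2 scale (adjusted p = 0.00416). ULK1 had the largest interaction in size, -1.23 ± 0.30, which did not pass (adjusted p = 0.0738), did so with DESeq2 (adjusted p = 0.0138) and after GC correction (-1.34, adjusted p = 2.6e-07), which also called ATG2A (-0.46, adjusted p = 0.0118), against 1.69% of all genes. For TFEB the interaction was -0.63 ± 0.36, for GABARAPL1 -0.37 ± 0.16, for NBR1 -0.33 ± 0.16 and for MITF 0.15 ± 0.20, and none of these passed, so a difference between the drugs in the response of these 4 genes was not shown.

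**Figure D3:**
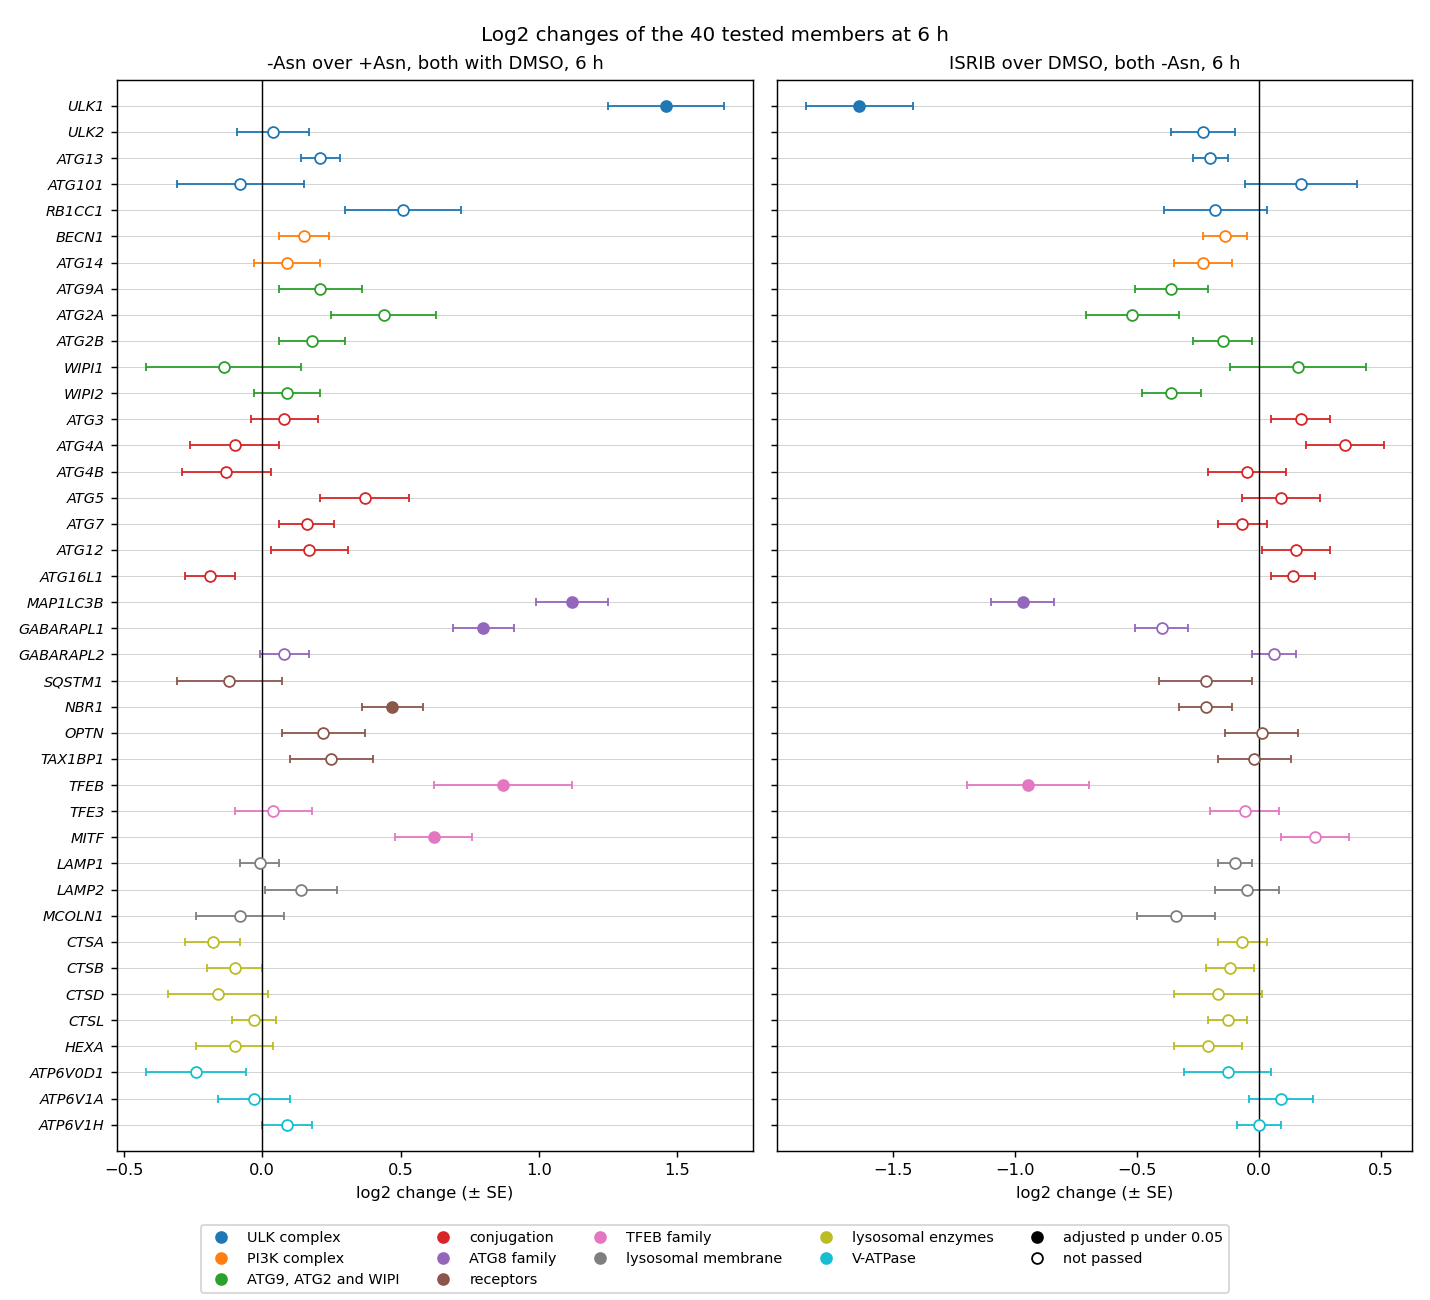
Log2 change ± SE of the 40 tested genes at 6 h, by role. Left, vehicle without asparagine over vehicle with it, and right, ISRIB over vehicle without asparagine, where filled points passed at an adjusted p under 0.05. ULK1 lies at 1.46 on the left and -1.64 on the right, MAP1LC3B at 1.12 and -0.97, while the lysosomal enzymes cluster near 0 in both. Both sides use the same libraries of vehicle without asparagine, so they are not independent.

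With asparagine present ISRIB changed no gene detectably. Of the 40 genes 0 passed at 6 h and 0 at 24 h, as did 0 of all 17409 genes (0%), with edgeR and with DESeq2. Without the low-count filter 7 of all genes passed at 6 h and 8 at 24 h, none of them among the 40. At an unadjusted p below 0.05, 203 of all genes and 0 of the 40 were found at 6 h, and 248 and 0 at 24 h. The log2 changes of the 40 genes ran from -0.42 (ULK1) to 0.21 at 6 h and from -0.28 to 0.27 at 24 h.

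At 24 h some of the 40 genes were called in each direction in ISRIB without asparagine, at shares near those of all genes. ISRIB without asparagine was compared with ISRIB with asparagine and with vehicle without asparagine. Both comparisons use the same 3 libraries of ISRIB without asparagine, so they are not independent. Against ISRIB with asparagine, 4 genes were higher and 6 lower, or 25% of the 40, against 22.1% of all genes (9.97% higher and 12.2% lower). Against vehicle without asparagine, 5 were higher and 5 lower, again 25%, against 21.7% of all genes (10.1% higher and 11.6% lower). Both shares are near the background, and the medians of the 40 genes were 0.04 and 0.11, against 0.01 and 0.00 for all genes. Markers of other cell types also differed here: the fibroblast list, almost wholly COL1A1, summed to 9.17 to 13.1 CPM in ISRIB without asparagine at 24 h, against 4.31 to 6.78 CPM in vehicle without asparagine and 4.59 to 7.68 CPM in ISRIB with asparagine, and the endothelial list, mostly CDH5, to 3.96 to 5.08 CPM in ISRIB without asparagine, against 7.26 to 9.64 CPM in vehicle without asparagine and 10.9 to 11.5 CPM in ISRIB with asparagine. The GC slopes were 0.209, -0.044 and 0.158 in ISRIB without asparagine, -0.166, 0.004 and -0.17 in vehicle without asparagine and 0.123, 0.076 and -0.375 in ISRIB with asparagine. The part of the markers in the results was not tested. Leaving out 1 library at a time gave 5 to 12 of the 40 genes called against vehicle. The count was 5 without replicate 3 of ISRIB without asparagine and 6 without replicate 1 of vehicle. The share of all genes called in these fits is not set beside the counts. The counts therefore cannot be told apart from shifts in calls over all genes.

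In the ULK complex ATG101, the subunit that stabilises ATG13 (chr12:52069246-52077494), had 31.4, 25.9 and 27.7 CPM in ISRIB without asparagine, against 11.9, 15.5 and 11.7 CPM in vehicle without asparagine and 19.3, 17.1 and 9.97 CPM in ISRIB with asparagine. It rose by 1.12 ± 0.23 against vehicle (adjusted p = 0.00166) and by 0.87 ± 0.23 against ISRIB with asparagine (adjusted p = 0.00893). Its GC-corrected changes were 0.87 and 0.71. The call against ISRIB with asparagine was lost without replicate 3 of ISRIB with asparagine (adjusted p = 0.0513), the library with the most negative GC slope, and in a fit to the 2 groups alone (adjusted p = 0.0531). ULK2 (chr17:19770829-19867936) moved the other way, with 8.98, 7.49 and 8.03 CPM in ISRIB without asparagine, against 11.4, 12.6 and 12.3 CPM in vehicle without asparagine and 12.5, 12.1 and 10.7 CPM in ISRIB with asparagine. It fell by 0.57 ± 0.13 (adjusted p = 0.00348) and 0.53 ± 0.13 (adjusted p = 0.00509), and all 3 libraries of that group lay below every other library of the study. The second of these calls was lost in a fit to the groups alone (adjusted p = 0.0548). ULK1 did not pass, at 21.6, 14.6 and 21.2 CPM in ISRIB without asparagine, against 14.8, 20.3 and 13.1 CPM in vehicle without asparagine and 23.0, 19.7 and 13.7 CPM in ISRIB with asparagine. After GC correction ULK1, with a GC content of 64.18%, fell by 0.24 against ISRIB with asparagine (adjusted p = 0.0397), against an uncorrected change of 0.03 ± 0.22.

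Among the membrane-building genes, ATG9A, the scramblase that seeds the membrane (chr2:219219380-219229717), had 110, 90 and 110 CPM in ISRIB without asparagine, against 55.5, 64.0 and 56.6 CPM in vehicle without asparagine and 75.2, 68.3 and 48.8 CPM in ISRIB with asparagine. Every library of ISRIB without asparagine was above every library of the other 2 groups, and ATG9A rose by 0.82 ± 0.15 (adjusted p = 0.000646) and 0.69 ± 0.15 (adjusted p = 0.00229), or by 0.56 and 0.51 after GC correction. WIPI1 (chr17:68420948-68457513) had 0.998, 0.986 and 0.725 CPM in ISRIB without asparagine, against 1.84, 2.17 and 1.55 CPM in vehicle without asparagine and 1.67, 2.29 and 2.27 CPM in ISRIB with asparagine. It fell by 1.02 ± 0.32 (adjusted p = 0.0266) and 1.18 ± 0.31 (adjusted p = 0.00935), on fewer counts than any other tested gene. The first of these was lost without replicate 1 or 2 of vehicle (adjusted p = 0.0633 and 0.0828) or replicate 1 or 3 of ISRIB (adjusted p = 0.0645 and 0.0976). Of the exon bases of ATG9A, 38.8% are shared on the same strand with AC068946.2, which the table does not list, and 24.34% of those of WIPI1 lie opposite ARSG, so part of either value could belong to a neighbour, in the case of ARSG if strand was not used in counting. The same holds for 19.19% of ATG101 and 20.67% of SQSTM1, which lie opposite AC025259.1 and MRNIP, and for 41.71% of CTSD, shared on the same strand with AC068580.4.

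The ATG8 genes that had risen at 6 h were lower. GABARAPL1 had 31.2, 31.6 and 26.1 CPM in ISRIB without asparagine, against 41.5, 36.3 and 40.6 CPM in vehicle without asparagine and 41.6, 39.2 and 41.3 CPM in ISRIB with asparagine. It fell by 0.41 ± 0.12 (adjusted p = 0.0153) and 0.46 ± 0.12 (adjusted p = 0.00737), the first lost without replicate 1 or 3 of vehicle (adjusted p = 0.0636 and 0.0565) or replicate 3 of ISRIB (adjusted p = 0.0828). MAP1LC3B had 28.5, 33.9 and 28.3 CPM in ISRIB without asparagine, against 35.9, 37.7 and 43.0 CPM in vehicle without asparagine and 34.9, 37.1 and 49.1 CPM in ISRIB with asparagine. Its falls of 0.36 ± 0.13 (adjusted p = 0.05, just under the threshold) and 0.41 ± 0.13 (adjusted p = 0.0253) were the least firm. The first was lost without any 1 of 5 libraries, all but replicate 2 of ISRIB (adjusted p = 0.0621 to 0.197), and with no low-count filter (adjusted p = 0.0783), and the second without replicate 3 of ISRIB with asparagine (adjusted p = 0.181) or replicate 1 or 3 of ISRIB without it (adjusted p = 0.102 and 0.0915), in a fit to the groups alone (adjusted p = 0.124) and without the 3 libraries of lowest GC slope (adjusted p = 0.06). GABARAPL2 had 46.1, 49.8 and 43.4 CPM in ISRIB without asparagine, against 50.3, 46.6 and 52.1 CPM in vehicle without asparagine and 48.5, 47.2 and 53.8 CPM in ISRIB with asparagine, and did not pass.

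Among receptors and transcription factors, SQSTM1 had 725, 536 and 679 CPM in ISRIB without asparagine, against 395, 491 and 405 CPM in vehicle without asparagine, and rose by 0.59 ± 0.19 (adjusted p = 0.0314). Without replicate 1 or 3 of vehicle or replicate 1 or 3 of ISRIB that call was lost (adjusted p = 0.101 to 0.131), after GC correction the change was 0.38, and against ISRIB with asparagine (588, 521 and 339 CPM) SQSTM1 did not pass (0.42 ± 0.19, adjusted p = 0.117) but did after GC correction (0.29, adjusted p = 0.00955). MITF had 78.2, 91.0 and 66.6 CPM in ISRIB without asparagine, against 61.5, 45.8 and 50.4 CPM in vehicle without asparagine and 42.1, 40.6 and 46.5 CPM in ISRIB with asparagine. It rose by 0.58 ± 0.15 (adjusted p = 0.00727) and 0.87 ± 0.15 (adjusted p = 0.000213) with no overlap, or by 0.75 and 0.99 after GC correction, and both calls held in all 14 alternatives run for each. TFEB had 7.11, 4.04 and 5.08 CPM in ISRIB without asparagine, against 3.38, 4.66 and 4.31 CPM in vehicle without asparagine and 7.19, 5.94 and 3.00 CPM in ISRIB with asparagine, and did not pass. TFE3 had 46.9, 38.0 and 44.5 CPM in ISRIB without asparagine, against 35.3, 33.4 and 34.2 CPM in vehicle without asparagine and 41.7, 37.0 and 27.9 CPM in ISRIB with asparagine, and did not pass either. NBR1 had 148, 152 and 141 CPM in ISRIB without asparagine, against 145, 128 and 152 CPM in vehicle without asparagine and 122, 119 and 150 CPM in ISRIB with asparagine, and did not pass, except against ISRIB with asparagine after GC correction (0.25, adjusted p = 0.0125).

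Of the lysosomal genes, MCOLN1 had 13.6, 12.1 and 14.1 CPM in ISRIB without asparagine, against 9.11, 8.81 and 8.66 CPM in vehicle without asparagine and 9.04, 9.34 and 5.84 CPM in ISRIB with asparagine. It rose by 0.58 ± 0.16 (adjusted p = 0.0117) and 0.71 ± 0.16 (adjusted p = 0.00267). At a GC content of 61.96%, MCOLN1 kept both calls after GC correction with smaller changes of 0.27 and 0.50. The first call was lost without replicate 3 of ISRIB without asparagine (adjusted p = 0.0535) and the second in a fit to the groups alone (adjusted p = 0.0586). CTSL, a cysteine protease, had 76.6, 73.0 and 81.8 CPM in ISRIB without asparagine, against 108, 106 and 117 CPM in vehicle without asparagine and 115, 108 and 132 CPM in ISRIB with asparagine. Its fall, by 0.52 ± 0.08 (adjusted p = 0.000108) and 0.62 ± 0.08 (adjusted p = 1.07e-05), had the smallest adjusted p of the 40 genes in both comparisons, and ISRIB without asparagine lay below every other library. LAMP2, one isoform of which is the receptor of chaperone-mediated autophagy, averaged 122 ± 13.4 CPM in ISRIB without asparagine and 157 ± 30.3 CPM in ISRIB with asparagine (SD, n = 3 each). It fell by 0.37 ± 0.13 (adjusted p = 0.0391), and the call was lost without replicate 3 of ISRIB with asparagine (adjusted p = 0.276) or replicate 1 or 3 of ISRIB without it (adjusted p = 0.156 and 0.115), in a fit to the groups alone (adjusted p = 0.144) and without the 3 libraries of lowest GC slope (adjusted p = 0.0848). Its GC-corrected change was -0.20 (adjusted p = 0.00483). CTSA, CTSB, CTSD and HEXA did not pass, nor did the 3 V-ATPase subunits or the 7 conjugation enzymes. After GC correction CTSD fell, by 0.25 against vehicle (adjusted p = 0.0107) and 0.29 against ISRIB with asparagine (adjusted p = 0.00267), while ATG3, ATG4A and ATG12 were higher by 0.28 to 0.50 in both comparisons. That correction also called HEXA (0.38, adjusted p = 0.0445), ATP6V1A (0.15, adjusted p = 0.0318) and ATG14 (-0.26, adjusted p = 0.046) against ISRIB with asparagine, and WIPI2 (0.18, adjusted p = 0.0398) against vehicle. Under it 34.2% of all genes passed against ISRIB with asparagine and 30.2% against vehicle.

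**Figure D4:**
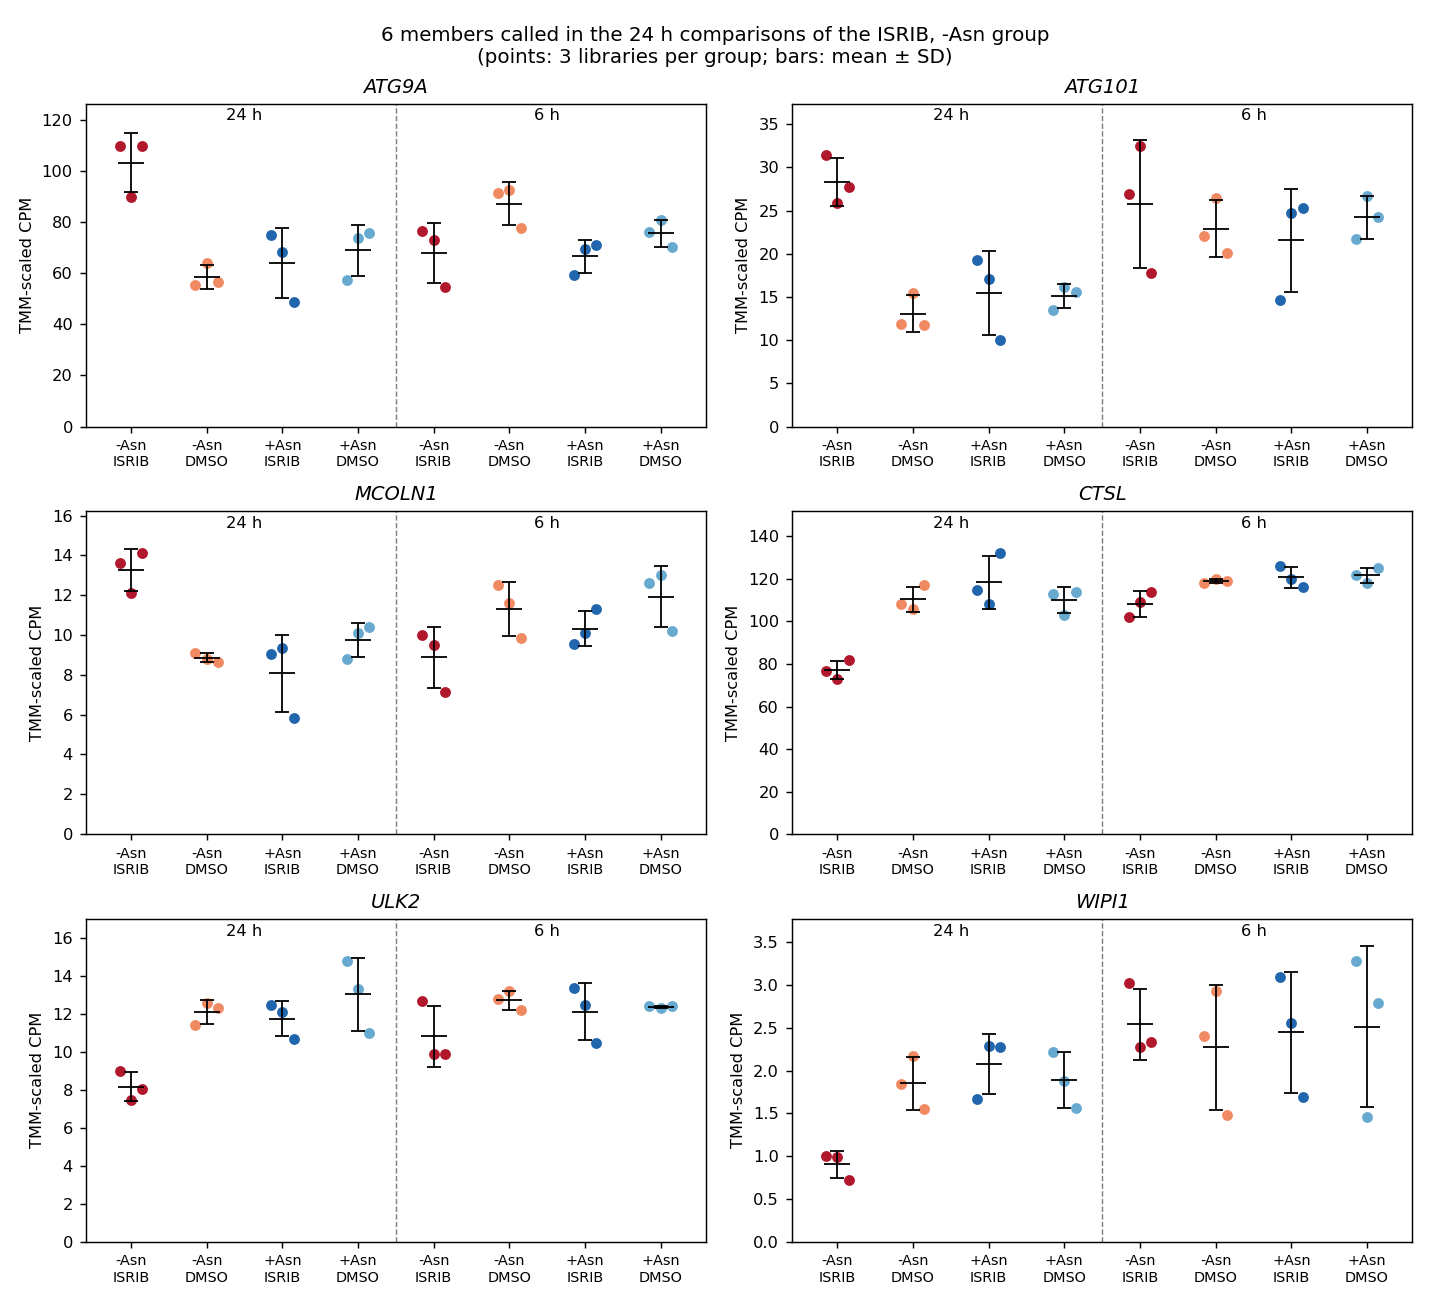
TMM-scaled CPM of 6 genes called at 24 h in ISRIB without asparagine, in all 24 libraries. Points are libraries and bars are mean ± SD of 3 libraries. In the leftmost group ATG9A (90 to 110 CPM), ATG101 and MCOLN1 lie above the other groups at 24 h, and CTSL (73.0 to 81.8 CPM), ULK2 and WIPI1 lie below them.

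**Figure D5:**
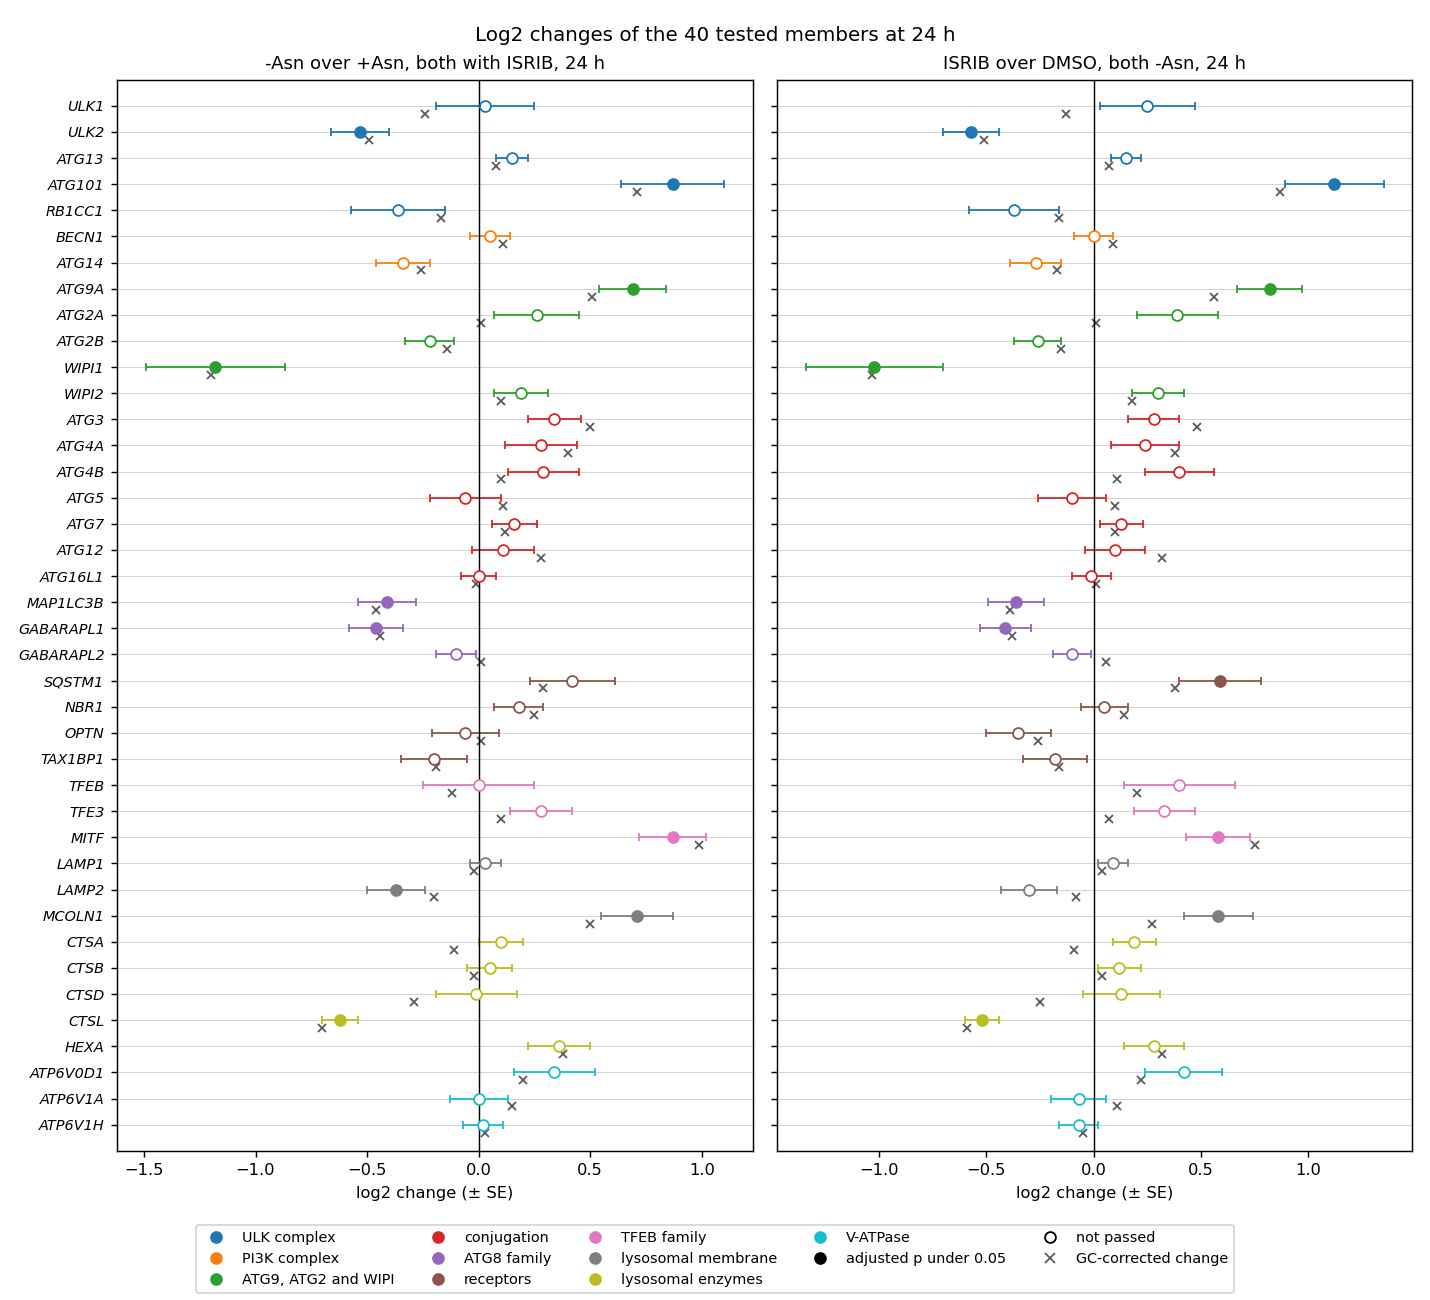
Log2 change ± SE of the 40 tested genes at 24 h, by role. Left, ISRIB without asparagine over ISRIB with it, and right, ISRIB over vehicle without asparagine, with filled points for an adjusted p under 0.05 and crosses for the GC-corrected change. ATG101, ATG9A, MITF and MCOLN1 lie to the right and WIPI1, CTSL and ULK2 to the left in both, and crosses lie left of the points for GC-rich genes such as CTSD and ULK1.

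The interaction at 24 h, the withdrawal response in ISRIB minus that in vehicle, passed for 4 of the 40 genes, or 10%, against 9.06% of all genes (3.47% higher and 5.59% lower). It was 1.08 ± 0.32 for ATG101 (adjusted p = 0.0412), 0.92 ± 0.21 for ATG9A (adjusted p = 0.00994), 0.84 ± 0.22 for MCOLN1 (adjusted p = 0.0226) and -0.62 ± 0.11 for CTSL (adjusted p = 0.00157). After GC correction these interactions were 0.75, 0.57, 0.42 and -0.74 in the same order, so those of ATG9A and MCOLN1 were smaller by over 1.5 times. ATG9A and CTSL kept the call in all 20 alternatives run. ATG101 lost it in 7 of 20, without replicate 1 or 3 of either group without asparagine, replicate 2 or 3 of vehicle with asparagine or replicate 3 of ISRIB with asparagine (adjusted p = 0.0777 to 0.104). MCOLN1 lost it in 6 of 20, without those libraries other than replicate 1 of vehicle without asparagine (adjusted p = 0.0531 to 0.0615). MITF (0.54 ± 0.21, adjusted p = 0.0949) and ULK2 did not pass. After GC correction MITF passed (0.77, adjusted p = 0.000606), as did SQSTM1 (0.40, adjusted p = 0.0206), ATG3 (0.39), ATG4B (0.19), ATG12 (0.35) and CTSD (-0.29), against 17.2% of all genes under that correction.

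The effect of ISRIB without asparagine differed between 24 h and 6 h for 9 of the 40 genes, or 22.5%, against 7.59% of all genes (3.35% higher and 4.24% lower). It was higher at 24 h for ULK1 (by 1.90 ± 0.31, adjusted p = 0.000608), ATG9A (1.18 ± 0.21, adjusted p = 0.00159), MCOLN1 (0.93 ± 0.22, adjusted p = 0.0151), WIPI2 (0.66), ATG13 (0.35), TFEB (1.35), ATG2A (0.90) and MAP1LC3B (0.61), and lower for CTSL (by 0.39). Higher here means a more positive or less negative log2 change, and not always a rise under ISRIB. ISRIB lowered MAP1LC3B at both times (-0.97 at 6 h and -0.36 at 24 h). It lowered ULK1 (-1.64) and TFEB (-0.95) at 6 h, and neither passed at 24 h. ATG9A did not pass at 6 h (-0.36) and was raised at 24 h (0.82). GC correction made the differences of MCOLN1 (0.54) and ATG2A (0.45) smaller by over 1.5 times, called ATG101 (0.65), ATG3 (0.37), SQSTM1 (0.55), NBR1 (0.37) and MITF (0.57) as higher too, and did not call MAP1LC3B (0.55, adjusted p = 0.0595), against 16.1% of all genes. ULK1, ATG9A and MCOLN1 kept this call in all 20 alternatives, while the other 6 lost it in 6 (TFEB) to 11 (MAP1LC3B) of them, nearly all settings that left out 1 library, with adjusted p of up to 0.253. The test uses the libraries behind the calls for ISRIB without asparagine at 6 h and at 24 h, so it is not independent of them.

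GABARAPL1 and MITF were lower at 24 h than at 6 h in every medium and drug. In ISRIB without asparagine 4 genes were higher and 6 lower at 24 h than at 6 h, or 25%, against 32.3% of all genes called (14.5% higher and 17.8% lower), and in vehicle without asparagine 1 was higher (ATG4A) and 11 lower, or 30%, against 25.4% (12.2% higher and 13.2% lower). In ISRIB with asparagine 1 was higher and 2 lower, or 7.5%, against 17.4% (8.75% higher and 8.62% lower), and in vehicle with asparagine 1 was higher and 4 lower, or 12.5%, against 18.8% (9.34% higher and 9.47% lower). In both directions together these shares are near or below the background, whereas the 11 of 40 lower in vehicle without asparagine are a larger share than the 13.2% of all genes. GABARAPL1 averaged 29.6 ± 3.07 CPM at 24 h and 93.5 ± 16 CPM at 6 h in ISRIB without asparagine, 39.5 ± 2.82 CPM at 24 h and 124 ± 8.44 CPM at 6 h in vehicle without asparagine, 40.7 ± 1.3 CPM at 24 h and 69.7 ± 2.8 CPM at 6 h in ISRIB with asparagine, and 39.9 ± 5.04 CPM at 24 h and 71.1 ± 4.67 CPM at 6 h in vehicle with asparagine (SD, n = 3 each). Its log2 change was -1.65, -1.65, -0.78 and -0.83 in the same order, with adjusted p of at most 6.43e-05. MITF fell by 0.85, 1.2, 0.94 and 0.90 on the log2 scale in that order, with adjusted p of at most 0.000182. NBR1 rose with time by 0.38 ± 0.11 in ISRIB without asparagine (adjusted p = 0.0107), 0.35 in ISRIB with asparagine (adjusted p = 0.031) and 0.38 ± 0.11 in vehicle with asparagine (adjusted p = 0.0194). In vehicle without asparagine its log2 change was 0.11 ± 0.11, which did not pass (adjusted p = 0.489). With asparagine, both NBR1 calls were lost when 1 library was left out: replicate 2 or 3 at 6 h or replicate 3 at 24 h in ISRIB (adjusted p = 0.131 to 0.176), and replicate 2 or 3 at 6 h or replicate 1 at 24 h in vehicle (adjusted p = 0.0736 to 0.115).

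In vehicle without asparagine the 11 genes lower at 24 h included 5 of the 6 that withdrawal raised at 6 h: GABARAPL1, MITF, ULK1 (-2.06 ± 0.22, adjusted p = 5.32e-07), MAP1LC3B (-1 ± 0.13, adjusted p = 5.26e-06) and TFEB (-1.29 ± 0.25, adjusted p = 0.00067). The others were ATG101 (-0.81), ATG2A (-0.70), ATG9A (-0.57), TFE3 (-0.52), ATG13 (-0.34) and BECN1 (-0.29), the last the core of the PI3-kinase complex. Withdrawal at 6 h and this change with time use the same libraries of vehicle without asparagine at 6 h. The overlap of 5 genes is therefore not independent support. In ISRIB without asparagine ATG9A (0.60), MCOLN1 (0.57, or 0.33 after GC correction), WIPI2 (0.50) and NBR1 were higher at 24 h, and WIPI1 (-1.48), CTSL (-0.49), ULK2 (-0.41) and MAP1LC3B (-0.39) were lower with GABARAPL1 and MITF. In vehicle with asparagine ATG101 (-0.68, adjusted p = 0.0406) and TFE3 (-0.40, adjusted p = 0.0488) were also lower, the second lost with the replicate block (adjusted p = 0.0515). Calls lost when 1 library was left out were ATG4A (any of the 6), ATG101 (replicate 1 or 3 at 24 h or 2 at 6 h) and BECN1 (replicate 1 or 2 at 6 h or 3 at 24 h) in vehicle without asparagine. They were MAP1LC3B (replicate 1 or 3 at 24 h or 3 at 6 h), MCOLN1 (replicate 3 at 6 h) and ULK2 (replicate 1 at 6 h or 2 or 3 at 24 h) in ISRIB without asparagine, and, in vehicle with asparagine, ATG101 (any but replicate 1 at 6 h) and TFE3 (any but replicate 3 at 24 h). All libraries at 24 h had spent longer in the new medium, and the endothelial marker list, mostly CDH5, also moved with time, with 3.96 to 11.5 CPM at 24 h against 24.5 to 57.6 CPM at 6 h. Its part in the time results was not tested.

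A wider list of 111 other autophagy and lysosome genes in the table, of which 106 were tested, was examined beside the 42. In vehicle without asparagine at 6 h 3 of the 106 were higher and 0 lower, or 2.83%, against 4.57% of all genes: CALCOCO2 (0.83 ± 0.14, adjusted p = 0.000587), the receptor NDP52, MAP1LC3B2, and NPC1 (0.39 ± 0.10, adjusted p = 0.0202), which carries cholesterol out of the lysosome. ISRIB without asparagine at 6 h lowered 3 of the 106, CALCOCO2 (-0.72 ± 0.14, adjusted p = 0.0038), MAP1LC3B2 (-0.68 ± 0.13, adjusted p = 0.00408) and WDR45 (-0.95 ± 0.23, adjusted p = 0.0266), which encodes a WIPI protein, and raised 0, again 2.83%, against 2.19% of all genes. CALCOCO2 was the 1 of the 106 that passed the interaction at 6 h (-0.84 ± 0.20, adjusted p = 0.0469). In ISRIB, withdrawal at 6 h lowered 1 gene, GLA (-0.39 ± 0.08, adjusted p = 0.00646), the lysosomal galactosidase.

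At 24 h the wider list had calls in both directions. Against ISRIB with asparagine 11 of the 106 genes were higher and 19 lower in ISRIB without asparagine, or 28.3%, against 22.1% of all genes. Against vehicle without asparagine 12 were higher and 14 lower, or 24.5%, against 21.7% of all genes, and both shares are near the background. By role, shares against ISRIB with asparagine ran from 0% of TFEB regulators to 41% of lysosomal enzymes (16 of 39, 6 higher and 10 lower). Those against vehicle ran from 0% of TFEB regulators to 50% of V-ATPase genes (8 of 16, 4 higher and 4 lower). The sphingomyelinase SMPD1 rose by 1.07 ± 0.19 (adjusted p = 0.00037) and 1.12 ± 0.19 (adjusted p = 0.000308). GLA fell by 0.79 ± 0.08 (adjusted p = 3.35e-07) and 0.65 ± 0.08 (adjusted p = 6e-06), and PIK3C3, the catalytic subunit of the PI3-kinase complex of BECN1 and ATG14, by 0.77 ± 0.11 (adjusted p = 5.51e-05) and 0.76 ± 0.11 (adjusted p = 8.16e-05). The lysosomal fucosidase FUCA1 fell by 0.80 ± 0.14 and 0.67 ± 0.14. Other genes with the smallest adjusted p were TPP1 (0.35), GUSB (0.36) and EPG5 (0.40) among those higher and CTSC (-0.56) among those lower than in ISRIB with asparagine. Against vehicle they were NPC1 (0.43), ATP6V0E1 (0.33) and ATG4D (0.96) among those higher and ATP6V1E2 (-0.73) among those lower.

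Over all 16 comparisons, 20 of the 40 tested genes passed in none: RB1CC1, ATG14, ATG2B, the conjugation enzymes ATG3, ATG4B, ATG5, ATG7, ATG12 and ATG16L1, GABARAPL2, the receptors OPTN and TAX1BP1, LAMP1, the enzymes CTSA, CTSB, CTSD and HEXA, and the 3 V-ATPase subunits. After GC correction all of these but ATG2B, ATG7, ATG16L1, OPTN, TAX1BP1, LAMP1, CTSA and CTSB passed in at least 1 comparison. In the 8 comparisons of medium or drug their log2 changes lay between -0.37 and 0.51. LAMP1 stayed between -0.10 and 0.09, and CTSD between -0.25 and 0.13. ATG3, the enzyme that transfers ATG8 proteins to lipid, came nearest to a call (0.34 ± 0.12 for withdrawal in ISRIB at 24 h, adjusted p = 0.0509). MAP1LC3B passed in 9 comparisons, GABARAPL1 and MITF in 8 each and ATG9A in 6, and some of these comparisons share libraries.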

How the data were processed

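Total RNA of 24 PC9 libraries was sequenced. The authors deposited whole-number counts per gene for 37411 genes. Bowtie2, featureCounts, DESeq2 and the build hg38 are named per the submitters' processing notes, and their versions, settings and use of strand are not given in the sources used here. A deposited table of transformed values was not used. Of the 37411 gene identifiers, 36620 matched GENCODE release 29, which gave exon length, position and GC content.

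Genes that edgeR's filterByExpr kept (17409, leaving out 0.0751 to 0.098% of counts) were fitted with 1 mean per group over all 24 libraries (edgeR 4.0.16 in R 4.3.3, TMM factors 0.902 to 1.08, quasi-likelihood F test, 16 residual degrees of freedom). In all, 16 contrasts were tested, each with Benjamini-Hochberg adjustment over all genes at a threshold of 0.05. CPM and RPKM use TMM-scaled totals. The code was tested on simulated data. The alternatives were DESeq2 1.42.0, RLE scaling, no filter, a replicate block, a GC correction of each library (spline with 5 degrees of freedom), both together, a fit to the compared groups alone, leaving out the 3 libraries with the most negative GC slope, and leaving out each library. Same-numbered libraries deviated together, with every correlation over 0.1, in 3 of 12 comparisons of 2 groups: the 6 h withdrawal in vehicle (0.304 to 0.339), the same at 24 h (0.187 to 0.35), and the ISRIB effect at 6 h in medium lacking asparagine (0.327 to 0.47). What a replicate number stands for is not given in the sources used here, so p-values measure the spread between these libraries.

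In each comparison every gene of the 42 that passed was named. Values in single libraries, for the groups of some comparisons, are given for the 12 with the smallest adjusted p over the 8 comparisons of medium or drug. They are also given for the TFEB and ATG8 families. At most 4 genes in each direction are named from the wider list. The 42 genes, the wider list and the naming rule were chosen with earlier results of these data known.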

Additional observations from a re-analysis of the deposited data

Results flagged for a closer look

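Responses that differed between drugs or times were found with an interaction term in edgeR's quasi-likelihood test, each value being a difference of 2 log2 changes. The response to asparagine withdrawal in ISRIB minus that in vehicle was -1.02 for MAP1LC3B at 6 h (adjusted p = 0.00416). At 24 h it was 1.08 for ATG101 (adjusted p = 0.0412), 0.92 for ATG9A (adjusted p = 0.00994), 0.84 for MCOLN1 (adjusted p = 0.0226) and -0.62 for CTSL (adjusted p = 0.00157). ATG101 kept its call in 13 of 20 alternatives and MCOLN1 in 14, while the others kept theirs in all 20.

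The withdrawal response in vehicle at 24 h minus that at 6 h was -1.97 for ULK1 (adjusted p = 0.000705), -1.1 for MAP1LC3B (adjusted p = 0.00144) and -0.81 for GABARAPL1 (adjusted p = 0.00737). The ISRIB effect without asparagine at 24 h minus that at 6 h was 1.9 for ULK1 (adjusted p = 0.000608), 1.35 for TFEB (adjusted p = 0.0262), 1.18 for ATG9A (adjusted p = 0.00159), 0.93 for MCOLN1 (adjusted p = 0.0151), 0.9 for ATG2A (adjusted p = 0.0429), 0.66 for WIPI2 (adjusted p = 0.02), 0.61 for MAP1LC3B (adjusted p = 0.0442), 0.35 for ATG13 (adjusted p = 0.0254) and -0.39 for CTSL (adjusted p = 0.0385). The 2 kinds of difference between times share the libraries of vehicle without asparagine, so they are not independent. Of the differences in the ISRIB effect, those of ULK1, ATG9A and MCOLN1 kept the call in all 20 alternatives. The call was kept in 14 of 20 for TFEB, 13 for ATG2A, 13 for WIPI2, 11 for ATG13, 10 for CTSL and 9 for MAP1LC3B.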

How the results depend on the processing

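Of 77 calls on the 42 genes over 16 comparisons, 44 were kept in every alternative and 0 changed direction in any. Several settings moved the counts of genes called by over 1.5 times. With GC correction, withdrawal called 11 in vehicle at 6 h (6 without it), 4 in ISRIB at 6 h (1) and 20 in ISRIB at 24 h (10), ISRIB without asparagine called 7 at 6 h (3), the interaction called 3 at 6 h (1) and 10 at 24 h (4), and the change of the vehicle response with time called 6 (3). The comparison of 24 h with 6 h then called 19 in ISRIB without asparagine (10), 10 in ISRIB with asparagine (3) and 10 in vehicle with asparagine (5). In the same order, 10.3, 8.13, 34.2, 6.08, 1.69, 17.2, 4.14, 42.8, 30.5 and 32.1% of all genes passed with the correction, against 4.57, 2.3, 22.1, 2.19, 0.718, 9.06, 1.22, 32.3, 17.4 and 18.8% without it. ISRIB without asparagine at 24 h called 15 with it (10). With GC correction and replicate block together these 10 counts, in the order just given, were 11, 7, 20, 10, 3, 11, 6, 20, 10 and 10, ISRIB without asparagine at 24 h called 17 (10) and its change with time 16 (9). A fit to the compared groups alone called 0 for withdrawal in ISRIB at 6 h, 5 at 24 h, 17 for ISRIB without asparagine at 24 h and 5 for the change of the vehicle response with time. Without the low-count filter the interaction called 2 at 6 h and 10 at 24 h, the vehicle change with time 5, and ISRIB with asparagine over time 5. DESeq2 called 2 for withdrawal in ISRIB at 6 h, 5 for ISRIB without asparagine at 6 h and 2 for the interaction at 6 h. With the 3 libraries whose GC slope was most negative left out, the counts were 10 for withdrawal in vehicle at 6 h, 6 and 21 for ISRIB without asparagine at 6 h and 24 h, 2 for the interaction at 6 h, 5 for the vehicle change with time and 8 for vehicle with asparagine over time. Other than for GC correction alone, the share of all genes called under each setting is not set beside these counts. They cannot be told apart from shifts in calls over all genes, and are not read as results about the 42 genes. The cause of these shifts was not tested.

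Leaving out 1 library gave 3 to 5 for withdrawal in vehicle at 6 h, 1 to 2 and 8 to 13 in ISRIB at 6 h and 24 h, 2 to 3 and 5 to 12 for ISRIB without asparagine at 6 h and 24 h, 1 to 2 and 2 to 5 for the interaction at 6 h and 24 h, 3 to 3 for the vehicle change with time and 3 to 10 for that of ISRIB. Over time it gave 8 to 12 in ISRIB and 9 to 11 in vehicle without asparagine, and 2 to 5 in ISRIB and 2 to 4 in vehicle with asparagine. Shares of all genes are not set beside these counts either, so the same limit holds. The replicate block alone lost 1 call, TFE3 over time in vehicle with asparagine (adjusted p = 0.0515), and left the counts of 6, 0 and 3 in the paired comparisons as they were. Depth limits the genes with few reads, WIPI1 (13 to 66 counts per library) and TFEB (53 to 226).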
